A study of Homo sapiens with 6 samples.

Results

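Keratins are the structural proteins that fill epithelial cells with intermediate filaments. The family was taken as the 55 genes of the deposited table of 60671 whose symbol is KRT followed by a number and at most the letter A, B or C, which leaves out keratin pseudogenes and keratin-associated proteins. They were measured by RNA sequencing in HaCaT cells, an established line of spontaneously immortalised human skin keratinocytes labelled as wild type. In 3 libraries (n = 3) the cells had been kept for 24 h in serum-free high-glucose medium with interferon beta (IFN-beta, labelled at 160 ng/mL), and in 3 control libraries (n = 3) for the same time in that medium without it. Serum was therefore absent in both groups, and both groups come from 1 cell line. The labels give skin as the source and the series text speaks of mice, while the samples are labelled HaCaT. They do not say whether replicates were grown separately, so the spread behind every p-value may be technical. No question about keratins is stated in the labels. The comparison shows how the keratin repertoire of a keratinocyte line differed after a day with a type I interferon.

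A keratin filament is built from pairs, each of 1 acidic type I chain and 1 basic or neutral type II chain, and a chain without a partner is degraded. Which pair a cell makes marks its state. Basal epidermal cells make KRT5 with KRT14 and KRT15, cells that leave the basal layer switch to KRT1 with KRT10, cells at a wound edge make KRT6 with KRT16 and KRT17, internal stratified epithelia such as oesophagus make KRT4 with KRT13, and single-layered epithelia make KRT8 with KRT18, KRT7 and KRT19. Cultured keratinocytes commonly hold several of these pairs at once. IFN-beta is an antiviral cytokine that keratinocytes make and sense and that acts through a receptor on the cell surface.

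Values are FPKM (fragments scaled by gene length and by library depth) as the authors deposited them, with the SD over the 3 libraries of a group. Changes are differences of log2(FPKM + 0.5), IFN-beta minus control, with their SE, and understate the change of genes at low levels. They were tested with limma over the 15163 genes with a mean of at least 0.5 FPKM, and a gene is said to have risen or fallen when its Benjamini-Hochberg adjusted p over all these genes was under 0.05. The libraries held 25832158 to 30594527 reads. Log2 values correlated across genes with r between 0.9938 and 0.9951 within groups and between 0.9732 and 0.9759 between them. The cell type was checked by marker genes. The keratinocyte keratins KRT5, KRT14, KRT15, KRT13, KRT10 and KRT6A summed to 3474 to 3927 FPKM in control and 3026 to 3070 in IFN-beta libraries. They belong to the family itself, so only the genes outside it are a separate check. Of keratinocyte genes outside the family, TP63 ran from 120.04 to 139 FPKM in control and from 168 to 177 FPKM with IFN-beta, SFN from 375 to 393 and from 424 to 449.5 FPKM, CDH1 from 110.4 to 127 and from 131 to 136 FPKM, and PERP from 77.4 to 82.5 and from 56.7 to 61.8 FPKM. Marker lists of fibroblasts (6 genes), melanocytes (4), leukocytes (4) and endothelial cells (3) summed to at most 3.13, 1.87, 3.96 and 2.21 FPKM, with DCN, MLANA and TYR at 0 in all 6 libraries. The endothelial sum was 0.696 to 0.964 FPKM in control and 2.12 to 2.21 FPKM in IFN-beta libraries, mostly from CDH5, and the fibroblast sum was 1.54 to 2.39 and 2.36 to 3.13 FPKM, nearly all from COL1A1, with the other 5 genes each under 0.1 FPKM in every library. Their part in the results below was not tested.

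Of the 55 keratins, 18 reached a mean of 0.5 FPKM and were tested. Of these, 6 rose (KRT9, KRT17, KRT18, KRT80, KRT8 and KRT6A), 6 fell (KRT13, KRT15, KRT10, KRT4, KRT5 and KRT19) and 6 did not pass (KRT14, KRT7, KRT16, KRT81, KRT3 and KRT1). That is 66.7% of the tested keratins, where 42.4% of all genes tested were called, 22.5% as higher and 19.9% as lower. The 2 groups of libraries did not overlap for 14 of the 18 keratins, 8 higher and 6 lower with IFN-beta, and for 54.0% of all genes tested. Higher genes made up 53.2% of all calls, 63.2% with every library rescaled to 1 sum (as in TPM) and 41.3% with quantile normalization. A fall of at least 2-fold was called in 0.343% of all genes tested, and in the 3 keratins KRT13, KRT15 and KRT10. A rise of at least 2-fold on the same log2 scale was called in 2.96% of all genes tested and in no keratin. For KRT9 this depends on the added amount, as its log2 change was 0.98 with 0.5 FPKM added, 1.08 with 0.1 and 0.88 with 1. Closest to the minimum level were KRT1 and KRT3 above it, with means of 0.597 and 0.655 FPKM, and KRT6B below it, with 0.347 FPKM. The median change of the 18 keratins was 0.123, against 0.0101 for all genes, and the median size of the change regardless of sign was 0.390 against 0.192. In RNA from a whole culture, fewer cells of a kind and less RNA per cell cannot be told apart.

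**Figure D1:**
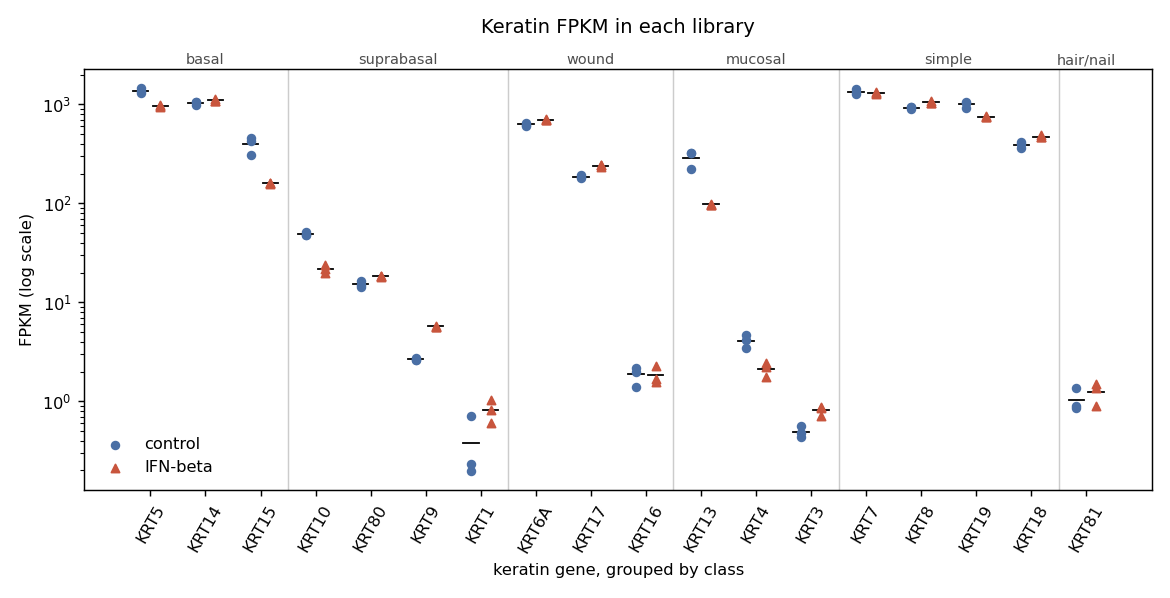
FPKM of the 18 tested keratins on a log axis, grouped by class, with 1 point per library (circles for control, triangles for IFN-beta) and a bar at each group mean. The IFN-beta values of KRT5, KRT15, KRT10, KRT13, KRT4 and KRT19 lie below all control values, and control replicate 3 is the low circle of KRT15 and KRT13.

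The deposited FPKM carry a feature that matters when keratins are compared with each other. The length behind each value was recovered from its steps. For 81.8% of 5047 well-covered genes with several transcripts it lay within 5% of the mean length of the gene's annotated transcripts in GENCODE release 29, and for 1.19% within 5% of the longest transcript. KRT7, with 14 annotated transcripts of 602 bases on average, was scaled by 593 bases, while its principal transcript is 1754 bases long. KRT14 was scaled by 1133 bases against 1662 and KRT80 by 3719 against 3859. The ratio of a gene's FPKM between groups does not depend on this length, but the order of the genes does. For genes at low levels the length also matters for the added 0.5 FPKM and for the minimum level. On its principal transcript length KRT1 stood at 0.235 ± 0.179 FPKM in control and 0.501 ± 0.128 FPKM with IFN-beta (SD, n = 3 each). It would then fall below the minimum. By deposited FPKM the control order was KRT5 (1374 FPKM), KRT7 (1346), KRT14 (1033), KRT19 (1002), KRT8 (929.98), KRT6A (629), KRT15 (398), KRT18 (393), KRT13 (289.9) and KRT17 (185). In that order KRT5 and KRT7, KRT14 and KRT19, KRT19 and KRT8, and KRT15 and KRT18 overlapped between libraries. In IFN-beta libraries the order was KRT7 (1303 FPKM), KRT14 (1099), KRT8 (1053), KRT5 (965), KRT19 (754), KRT6A (702), KRT18 (474), KRT17 (239.6), KRT15 (159.8) and KRT13 (97.5), with overlap only of KRT14 and KRT8. KRT5 thus stood at the top with KRT7 in control and below KRT7, KRT14 and KRT8 with IFN-beta. With FPKM recomputed on the length of the principal transcript, KRT14 came highest in both groups, at 704 ± 29.2 FPKM in control and 749 ± 21.98 FPKM with IFN-beta (SD, n = 3 each). On this scale KRT8 came next by mean, at 563 ± 17.1 and 637 ± 20.8 FPKM (SD, n = 3 each). In control the libraries of KRT8 (543 to 575 FPKM), KRT19 (489 to 562 FPKM) and KRT5 (488 to 549 FPKM) overlapped. With IFN-beta those of KRT8 lay above both. KRT19 stood at 537 ± 41.2 FPKM in control and 404 ± 5.90 FPKM with IFN-beta, KRT5 at 519.5 ± 30.6 and 365 ± 5.60 FPKM, and KRT7 at 455 ± 24.4 and 441 ± 14.9 FPKM (SD, n = 3 each), so that KRT7 was below KRT19 in control and above it with IFN-beta. Of all reads, 0.758% ± 0.0373 in control libraries and 0.681% ± 0.0125 in those with IFN-beta came from keratins (SD, n = 3 each), and in every library the 10 most abundant keratins made up at least 98.9% of summed keratin FPKM.

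All keratin genes lie in 2 clusters, with 28 on chromosome 17, where all the type I genes but KRT18 lie, and 27 on chromosome 12, where KRT18 sits among the type II genes. Coordinates are those of the deposited table, whose genome build the labels give only as the mouse builds GRCm38 and mm10 while its genes are human. Of the 55 keratins 23 have exactly the GENCODE release 29 coordinates (human build GRCh38). KRT13 and KRT15, the tested keratins with the lowest changes, are neighbours. On chromosome 17 KRT13 (41500981 to 41505705), KRT15 (41513745 to 41522529) and KRT19 (41523617 to 41528308) follow each other on the minus strand with gaps of 8.04 and 1.09 kb. Their log2 changes were -1.55, -1.29 and -0.41. The next genes in the same direction are KRT9 (41565836 to 41572059), 37.5 kb further, KRT14 (41582279 to 41586895), KRT16 (41609778 to 41615899) and KRT17 (41619442 to 41624842), with changes of 0.98, 0.09, -0.01 and 0.37. KRT10 (40818117 to 40822614) lies 678 kb before KRT13, with 14 keratins too low to test between them. On chromosome 12 the lowered KRT5 (52514575 to 52520530) lies 21.3 kb from KRT6A (52487176 to 52493257), which rose. KRT8 (52897187 to 52949954) and KRT18 (52948871 to 52952906), filament partners of opposite type and strand whose gene models overlap, both rose.

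**Figure D2:**
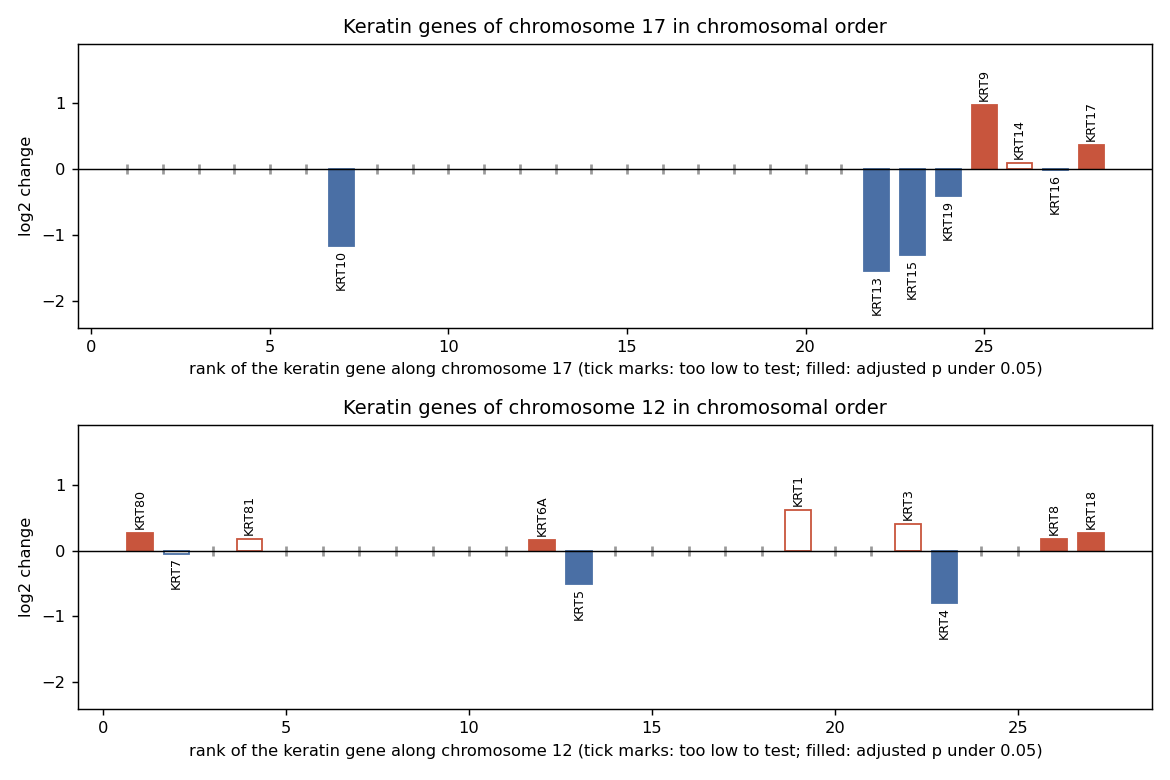
Log2 change of each tested keratin (y axis) against its rank among the keratin genes of chromosome 17 (top) and chromosome 12 (bottom), with tick marks for keratins too low to test and filled bars for adjusted p under 0.05. KRT13, KRT15 and KRT19 are consecutive and all lower, and KRT8 and KRT18 are consecutive and both higher.

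RefSeq start-site sequences (build GRCh38.p14) were held for 38 keratins, 6 of them tested (KRT3, KRT4, KRT5, KRT8, KRT9 and KRT10). Within 250 bases upstream, the letters TATAA on the gene's own strand, the core of the element that positions transcription starts, were found in 27 of the 38 keratin promoters, against 13.6% of all 35116 promoters. The letters GAAA, any 2 bases and GAAA again, on either strand, resemble the interferon-stimulated response element. They were found in 3 of the 38 keratin promoters and 3.02% of all. Among the 6 tested keratins the interferon-type element was found in KRT10, on the opposite strand from base -209 to base -200 counted from the start. The other matches were in KRT12 and KRT24, which had no read in any library. Letters of further elements were searched as well. GAS was found in 2 of 38 keratin promoters and 6.57% of all, and AP-1 in 0 and 6.57%. AP-2 was found in 5 and 19.8%, the SP1 GC box in 4 and 42.6%, and the CCAAT box in 17 and 32%. A match describes letters, not binding. Shown are the upstream stretches, ending at the base before the start, of KRT10 and KRT9, the suprabasal type I keratins that moved furthest in opposite directions, and of KRT4 and KRT5, the type II keratins that fell. Capitals mark TATAA and, in KRT10, the reverse complement of the interferon-type element. KRT5 holds no TATAA in this window.
KRT10 (chr17:40822615-40822844, minus strand): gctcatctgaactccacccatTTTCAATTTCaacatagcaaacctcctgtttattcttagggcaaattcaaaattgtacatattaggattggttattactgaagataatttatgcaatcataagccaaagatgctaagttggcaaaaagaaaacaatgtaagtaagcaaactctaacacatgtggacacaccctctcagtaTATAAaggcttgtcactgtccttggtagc
KRT9 (chr17:41572060-41572179, minus strand): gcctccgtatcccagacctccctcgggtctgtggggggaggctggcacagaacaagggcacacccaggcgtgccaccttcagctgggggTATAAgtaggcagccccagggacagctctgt
KRT4 (chr12:52814117-52814236, minus strand): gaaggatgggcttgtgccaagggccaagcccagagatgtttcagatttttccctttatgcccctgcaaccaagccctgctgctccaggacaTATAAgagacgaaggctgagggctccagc
KRT5 (chr12:52520395-52520514, minus strand): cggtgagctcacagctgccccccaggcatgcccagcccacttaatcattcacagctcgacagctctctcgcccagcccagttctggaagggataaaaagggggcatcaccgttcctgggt

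Among basal keratins KRT5 and KRT15 fell and KRT14 did not pass. KRT5, the type II chain of the basal layer, stood at 1453, 1379 and 1291 FPKM in control and at 951, 981 and 962 FPKM in IFN-beta libraries. Every IFN-beta value lay below every control value, and the log2 change was -0.51 ± 0.048 (limma adjusted p = 6.04e-05). KRT14, its type I partner, stood at 1046, 1068 and 985 FPKM and at 1091, 1072 and 1135 FPKM. The groups did not overlap, yet the change of 0.09 ± 0.044 did not pass (limma adjusted p = 0.137). It passed with TPM-like rescaling (0.14, limma adjusted p = 0.0366) and with quantile normalization (0.28, limma adjusted p = 5.26e-04). Groups did not overlap in 28.6% of all genes tested in the upward and 25.4% in the downward direction.

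KRT15, a second type I partner of KRT5 that marks basal and stem-like keratinocytes, stood at 430, 454 and 310 FPKM in control and at 160, 162 and 157 FPKM with IFN-beta. The lowest control library, replicate 3, was still well above the IFN-beta libraries, which lay close together. The log2 change was -1.29 ± 0.12 (limma adjusted p = 5.15e-05), and between -1.46 and -1.19 when single libraries were left out. Only 12 of the 15163 genes had a lower change. Summed over the class, basal keratins went from 2805 ± 190.3 to 2223 ± 27.1 FPKM (SD, n = 3 each), a change of -20.7%, or of -13.6% per principal transcript length. The latter scale divides KRT15 by 5237 bases instead of 1607, and KRT14 by 1662 instead of 1133. KRT15 therefore weighs less against KRT14 in that sum.

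Both KRT13 and KRT4, the pair of mucosal epithelia, fell, and KRT3 did not pass. KRT13, the type I keratin of non-cornified stratified epithelia, stood at 319.7, 325 and 225 FPKM in control and at 97.2, 99.1 and 96.3 FPKM with IFN-beta. Control replicate 3 was again the lowest control, and the groups did not overlap. The log2 change of -1.55 ± 0.12 (limma adjusted p = 1.75e-05) was undercut by 5 of the 15163 genes tested, and ran from -1.72 without control replicate 3 to -1.46 without control replicate 2. An antisense gene, AC019349.1, shares 16.3% of the exonic bases of KRT13 and had a log2 change of -1.16 ± 0.25. The use of strand in counting is not given in the sources used here, so reads of the pair may not be told apart.

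KRT4, the type II partner of KRT13, was far less abundant, at 4.66, 4.15 and 3.49 FPKM in control and 2.22, 1.76 and 2.42 FPKM with IFN-beta. It fell as well, by 0.80 ± 0.13 on the log2 scale (limma adjusted p = 0.00147). KRT3, the type II keratin of the corneal epithelium, went from 0.493 ± 0.0690 to 0.817 ± 0.0853 FPKM (SD, n = 3 each), a change of 0.41 ± 0.15 (limma adjusted p = 0.0570) on 30 to 61 reads per library. It passed with TPM-like rescaling (limma adjusted p = 0.0463), in the fit without a trend (0.00865) and with limma voom on recovered reads (0.0126). Its partner KRT12 had no read in any library, and KRT76, a keratin of the palate and gingiva, had 0 to 2 reads per library. The class went from 295 ± 56.7 to 101 ± 1.13 FPKM (SD, n = 3 each), a change of -65.9%, which is almost entirely KRT13 and the furthest from 0 among the 5 main classes.

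Suprabasal keratins split. KRT10, the type I keratin of differentiating epidermal layers, stood at 48.3, 48.0 and 51.3 FPKM in control and at 19.6, 21.8 and 23.8 FPKM with IFN-beta. The groups lay far apart relative to their spread, with a log2 change of -1.16 ± 0.068 (limma adjusted p = 2.94e-06), the lowest adjusted p of the family. TMEM99, which overlaps KRT10 on the opposite strand over 2.61% of the exonic bases of KRT10, went from 14.3 ± 0.418 to 7.55 ± 0.260 FPKM (SD, n = 3 each).

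KRT9, the type I keratin of palm and sole epidermis, went the other way. It stood at 2.71, 2.62 and 2.64 FPKM in control and at 5.62, 5.82 and 5.69 FPKM with IFN-beta, a level 2.15 times as high, on 129 to 330 reads per library. Both groups were tight, and the log2 change was 0.98 ± 0.077 (limma adjusted p = 1.85e-05). KRT80, a type II keratin of many epithelia that rises with differentiation, rose from 15.3 ± 1.17 to 18.4 ± 0.332 FPKM (SD, n = 3 each), a log2 change of 0.26 ± 0.062 (limma adjusted p = 0.00900).

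KRT1, the type II partner of KRT10, stood at 0.716, 0.199 and 0.231 FPKM in control and at 0.812, 1.02 and 0.606 FPKM with IFN-beta, and the groups overlapped through control replicate 1. Its change of 0.61 ± 0.24 did not pass (limma adjusted p = 0.0731). It passed without control replicate 1 (0.87, limma adjusted p = 0.0127) and with limma voom on recovered reads (1.247, limma adjusted p = 0.0149). KRT1 and KRT3 reached the mean of 0.5 FPKM only through their IFN-beta libraries. KRT2, KRT77 and KRT78, grouped here with the suprabasal keratins, had 0 to 7 reads in any library.

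**Figure D3:**
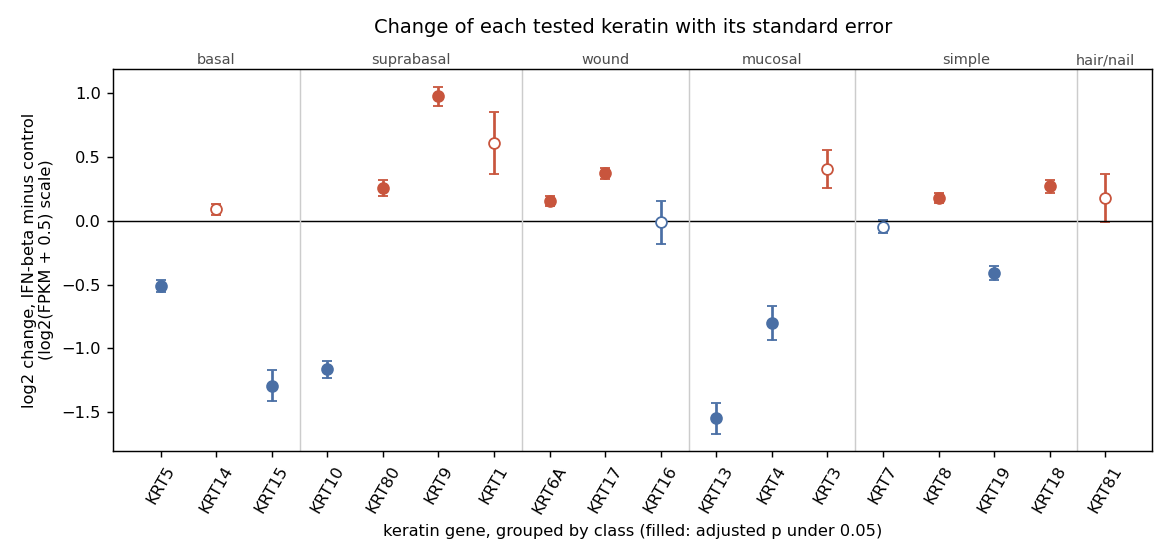
Log2 change of the 18 tested keratins with its standard error, grouped by class, filled where the limma adjusted p was under 0.05. Changes range from -1.55 for KRT13 to 0.98 for KRT9, and wound keratins lie between -0.01 and 0.37.

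Of the wound keratins, KRT6A and KRT17 rose and KRT16 did not pass. KRT6A, the main type II keratin of activated keratinocytes, stood at 623, 654 and 612 FPKM in control and at 718, 691 and 697 FPKM with IFN-beta. The groups did not overlap, and the change was small, 0.16 ± 0.039 (limma adjusted p = 0.0114). The call ended without IFN-beta replicate 1 (0.14, limma adjusted p = 0.0556).

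KRT17, a type I keratin of wound edges and hair follicles that interferon gamma and the skin disease psoriasis are known to raise, stood at 192, 180 and 183 FPKM and at 231, 244 and 244 FPKM. All IFN-beta libraries were above all controls, with a log2 change of 0.37 ± 0.040 (limma adjusted p = 1.19e-04). KRT16, the type I partner of KRT6A, was near the low end of the tested keratins, at 2.19, 2.00 and 1.41 FPKM and at 1.66, 2.29 and 1.57 FPKM, with groups that overlapped and a change of -0.01 ± 0.17 (limma adjusted p = 0.963).

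Keratins of this class have close copies. Of the 75-base words in the transcripts of KRT6A 20.5% are also in other genes, mostly KRT6C and KRT6B, and of those of KRT16 6.43%. KRT6C had 0 to 2 reads per library. KRT6B, at 0.226 ± 0.0540 and 0.468 ± 0.102 FPKM (SD, n = 3 each), stood just under the minimum level, and its change in the fit without that minimum was 0.41 (limma adjusted p = 0.0642). KRT16P6, a pseudogene of KRT16 on chromosome 17 that is outside the family as defined and was singled out after its values were seen, went from 0.618 ± 0.133 to 4.65 ± 0.723 FPKM (SD, n = 3 each). Its log2 change was 2.20 ± 0.15 (limma adjusted p = 6.34e-06), so in the IFN-beta libraries the pseudogene stood above KRT16 itself. Over all libraries the 6 KRT16 pseudogenes held 674 reads and KRT16 326. The class sum went from 817 ± 19.5 to 944 ± 7.23 FPKM (SD, n = 3 each), 15.6% higher.

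Simple-epithelial keratins were the most abundant class, at 3671 ± 134 FPKM in control and 3584 ± 102 FPKM with IFN-beta (SD, n = 3 each), and the ranges of the class sum overlapped. Within it KRT8 and KRT18 rose while KRT19 fell. KRT8, the type II chain, stood at 949.97, 898 and 942 FPKM in control and at 1037, 1029.5 and 1092 FPKM with IFN-beta, a change of 0.18 ± 0.042 (limma adjusted p = 0.00828).

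KRT18, its type I partner, stood at 398, 365 and 417 FPKM and at 468, 464 and 491 FPKM, a change of 0.27 ± 0.052 (limma adjusted p = 0.00304). In both genes the groups did not overlap. Both have many processed pseudogenes. The 51 KRT8 and 67 KRT18 pseudogenes of the table held reads that came to 0.594% and 0.159% of those of the parent genes. KRT8 and KRT18 also share exonic bases on opposite strands, 16.3% of those of KRT18 and 7.63% of those of KRT8. As the use of strand in counting is not given, reads from these bases may not be told apart. The part of such reads in the rise of both genes and in the KRT8 to KRT18 ratio was not tested.

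KRT19, the smallest keratin, which lacks most of the tail domain, stood at 1045, 1048 and 913 FPKM in control and at 744, 751 and 766 FPKM with IFN-beta. It fell by 0.41 ± 0.056 on the log2 scale (limma adjusted p = 4.85e-04), and the change was -0.21 with quantile normalization. KRT7, the type II keratin of ductal epithelia, stood at 1426, 1327 and 1285 FPKM and at 1297, 1262 and 1350 FPKM, with overlapping groups and a change of -0.05 ± 0.050 (limma adjusted p = 0.494). Its direction turned with TPM-like rescaling (4.13e-04) and with quantile normalization (0.16, limma adjusted p = 0.0439). KRT20, a keratin of gut epithelium, had 0 to 3 reads per library.

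**Figure D4:**
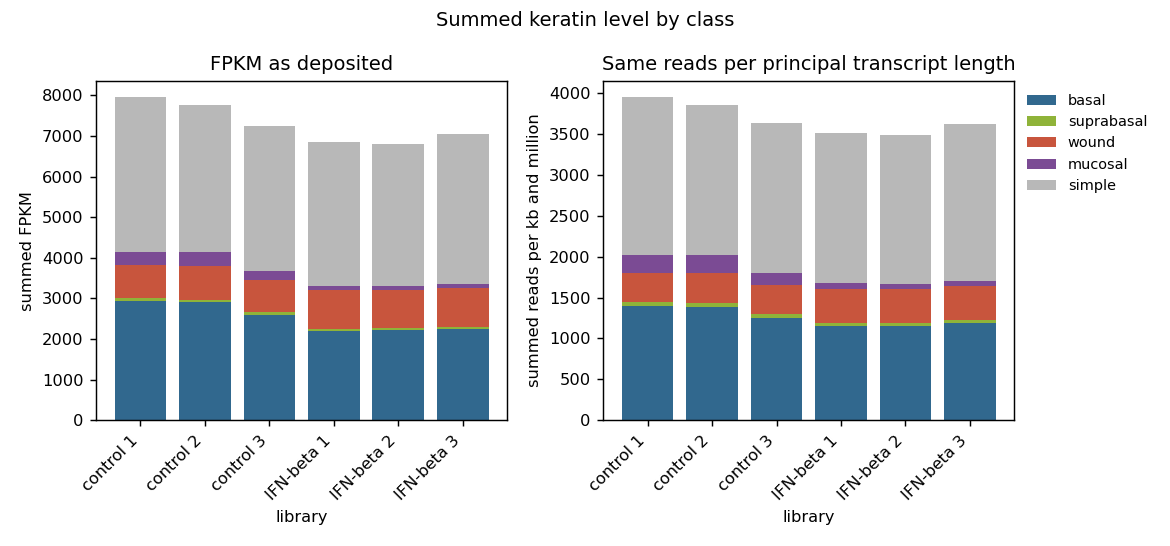
Summed level of the 5 main keratin classes in each library, stacked, as deposited FPKM (left) and as FPKM recomputed on the principal transcript length (right). Mucosal keratins shrink from 295 to 101 FPKM on average and simple keratins stay the largest class in all 6 libraries on both scales.

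Keratins of hair, nail and the inner layers of the follicle were at or near 0. Of the 37 keratins below the minimum level, 17 had no read in any library, 12 had 1 to 10 reads over all libraries and 8 had more. Without a read, which allows up to 3 reads over the libraries of a group, were KRT12, KRT222, KRT24, KRT25, KRT26, KRT27, KRT28, KRT33B, KRT35, KRT36, KRT40, KRT73, KRT75, KRT82, KRT83, KRT84 and KRT85. With 1 to 10 reads were KRT2, KRT6C, KRT20, KRT31, KRT34, KRT37, KRT38, KRT71, KRT72, KRT76, KRT77 and KRT79. None of the 10 keratins of the follicle sheath and 1 of 17 hair and nail keratins was tested. That one, KRT81, stood at 1.04 ± 0.274 and 1.24 ± 0.315 FPKM (SD, n = 3 each), with a change of 0.18 ± 0.19 (limma adjusted p = 0.476), from 0.075 without IFN-beta replicate 2 to 0.33 without IFN-beta replicate 1, and 35.9% of its words are shared, mostly with KRT86. KRT39, a type I hair keratin, had no read in any of the 3 controls, while the IFN-beta libraries held 7, 5 and 8 reads. Against a floor of 3 reads over the control group this is 6.52-fold higher per read sequenced. The floor covers counting error in the controls only, and the IFN-beta reads are taken as counted, so the true difference may be smaller. KRT39 was the 1 keratin below the minimum that passed in the fit without it (limma adjusted p = 0.00276). KRT23, a type I keratin outside these classes, had 0, 1 and 7 reads in control and 10, 5 and 8 with IFN-beta, and the groups overlapped. KRT32 ran from 3 to 15 reads per library, KRT33A from 3 to 11, KRT86 from 5 to 12 and KRT74 from 1 to 3.

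Of 9 tested type I keratins 3 rose (KRT9, KRT17 and KRT18), 4 fell (KRT13, KRT15, KRT10 and KRT19) and 2 did not pass, with a median change of -0.0118. Of 9 tested type II keratins 3 rose (KRT80, KRT8 and KRT6A), 2 fell (KRT4 and KRT5) and 4 did not pass, with a median of 0.179. Called were 77.8% of the tested type I and 55.6% of the tested type II keratins, against 42.4% of all genes tested. Of all genes tested, 22.5% were called higher and 19.9% lower. The difference between the types was not tested. Summed type I FPKM went from 3355 ± 230.1 to 2854 ± 57.7 and summed type II FPKM from 4301 ± 163 to 4047 ± 71.2 (SD, n = 3 each). The ratio of type II to type I FPKM was 1.28, 1.22 and 1.34 in control and 1.43, 1.41 and 1.41 with IFN-beta, without overlap. Per principal transcript length the same ratio was 0.899, 0.862 and 0.932 in control and 0.970, 0.962 and 0.960 with IFN-beta. The order of the groups is the same on both scales, while which type is in excess depends on the length used.

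KRT8 and KRT18, which pair in simple epithelia, both rose, KRT13 and KRT4 both fell, and KRT5 fell while KRT14 did not pass. For 7 pairs with both members tested, the log2 ratio of the type II to the type I chain was compared in an exact two-sided permutation test, in which 3 libraries against 3 cannot give less than p = 0.1, so that none could pass. The ratio of KRT5 to KRT14 was 0.47, 0.37 and 0.39 on the log2 scale in control and -0.20, -0.13 and -0.24 with IFN-beta, so the sign of the deposited ratio turned, while on principal transcript lengths KRT14 stood above KRT5 in both groups. The difference was -0.60 ± 0.045 (exact permutation p = 0.1, adjusted over 7 pairs 0.117). KRT5 to KRT15 moved the opposite way, by 0.79 ± 0.13, since KRT15 fell further than KRT5, and KRT7 to KRT19 by 0.36 ± 0.050. KRT4 to KRT13 moved by 0.61 ± 0.17. KRT1 to KRT10 moved by 2.50 ± 0.65, or 1.77 with a pseudocount of 0.5 FPKM, on 9 reads of KRT1 in each of 2 control libraries.

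These 4 pairs and the pair of KRT8 and KRT18, at -0.09 ± 0.035, had the same exact permutation p of 0.1 and the same adjusted value of 0.117. The log2 ratio of KRT8 to KRT18 ran from 1.18 to 1.30 in control and from 1.15 to 1.16 with IFN-beta, the smallest shift of the 7 pairs. KRT6A to KRT16 overlapped between groups, at 0.17 ± 0.25 (exact permutation p = 0.6, adjusted over 7 pairs 0.6), from 0.034 without control replicate 1 to 0.35 without IFN-beta replicate 2.

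**Figure D5:**
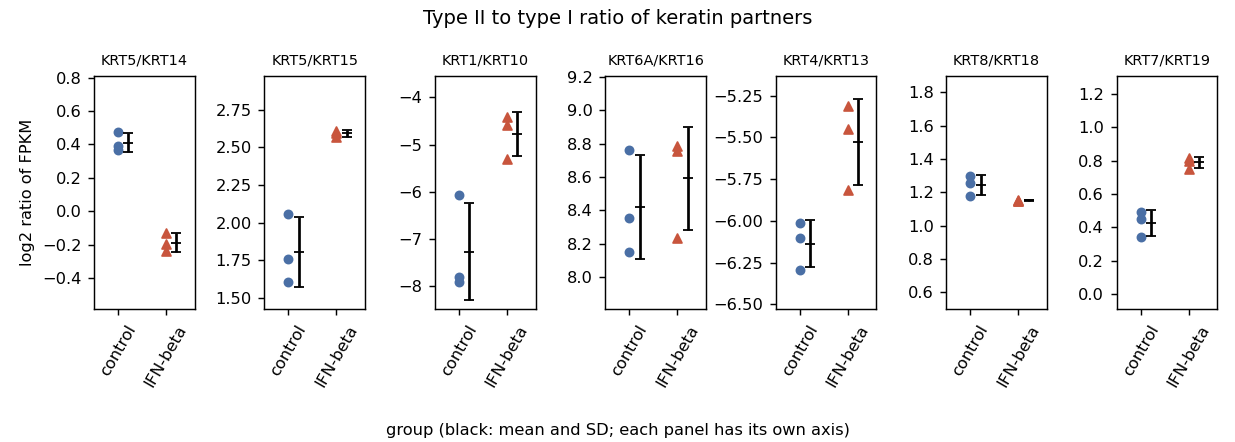
Log2 ratio of type II to type I FPKM in each library for 7 known filament pairs (circles for control, triangles for IFN-beta, black for mean and SD, each panel with its own axis). The KRT5/KRT14 ratio falls from a mean of 0.41 to -0.19 while the KRT8/KRT18 ratio shifts by -0.09.

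Other genes of the keratin network moved in both directions. From a list of 34 genes 31 were tested, of which 10 rose, 5 fell and 16 did not pass, or 48.4% called against 42.4% of all genes. Among 8 linkers that tie keratin filaments to desmosomes, hemidesmosomes and the cytoskeleton, 7 did not pass, among them JUP, the desmosomal plakoglobin, at 415 ± 36.2 and 436 ± 10.5 FPKM (SD, n = 3 each). The desmosomal plaque gene PKP1 fell from 127 ± 10.5 to 102 ± 1.35 FPKM (SD, n = 3 each). Of 3 genes that bundle or cross-link filaments, TGM1, the transglutaminase of the cornified envelope, had a change of 0.67 ± 0.14 and passed, TCHH, the trichohyalin of hair sheaths, fell by 0.34 ± 0.12, and FLG, filaggrin, stood at 2.03 ± 0.396 and 2.18 ± 0.209 FPKM without passing.

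Of 9 partners, chaperones and turnover factors 3 rose, 2 fell and 4 did not pass. HSPB1, a small heat shock protein that associates with keratins, fell from 338 ± 18.8 to 257 ± 16.6 FPKM (SD, n = 3 each), and TRADD, a death receptor adaptor that binds KRT18, fell by 0.21 ± 0.062. SFN, the 14-3-3 protein sigma that binds KRT17, rose from 382 ± 9.78 to 434 ± 13.3 FPKM (SD, n = 3 each). The ubiquitin ligase STUB1 was the most abundant member that did not pass. Of 9 tested transcriptional regulators 5 rose, 1 fell and 3 did not pass. KLF4, a factor of epidermal differentiation, went from 3.91 ± 0.219 to 8.17 ± 0.815 FPKM (SD, n = 3 each), a change of 0.97 ± 0.089. TP63, the master factor of stratified epithelium that drives KRT5 and KRT14, rose from 131 ± 10.1 to 174 ± 5.01 FPKM (SD, n = 3 each), while KRT5 fell. CEBPA, a factor of suprabasal keratinocytes, fell by 0.45 ± 0.10, and TFAP2A stood at 54.8 ± 3.52 and 51.8 ± 3.04 FPKM without passing. Among other intermediate filament genes SYNM rose by 0.46 ± 0.11 and LMNA stood at 313 ± 20.3 and 303 ± 6.97 FPKM without passing. VIM, the mesenchymal filament gene, ran from 0.242 to 0.656 FPKM over the 6 libraries, under the minimum level.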

How the data were processed

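The authors deposited 1 table of FPKM for 60671 human genes in 6 libraries. Per the labels' protocols, CLC Genomics Workbench 11.0.1 was named without a step, and the submitters' processing notes name the builds GRCm38 and mm10. For alignment, counting and strandedness nothing is given in the sources used here. Groups came from sample titles.

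From the steps of the FPKM, totals of 25832158 to 30594527 reads and a whole length per gene were recovered, within 0.01 reads for 100% of 30507 genes above 0. For genes with few reads a multiple of the recovered count is possible. The floor was 3 reads, for counting error only. log2(FPKM + 0.5) was tested with limma 3.58.1 (R 4.3.3, lmFit, eBayes with trend, two-sided, minimum mean 0.5 FPKM). Figures used Python 3.11.15 and matplotlib 3.10.9. The fit was tested on data simulated for IFN-beta against control with 15006 genes. It called 14.6% of the genes altered 1.25-fold, 66.7% at 1.5-fold, 92% at 2-fold and 0.054% of unaltered ones. The simulation gave every gene the same dispersion and left 14812 of the 15006 genes unaltered. In the data 42.4% of all genes tested were called, which makes the adjusted threshold less strict. The simulated rates therefore do not give the rates of the fit to these data.

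The keratins, classes and lists were chosen with earlier results of these data known. Named are all keratins with a mean of at least 0.5 FPKM, lower ones by reads only (KRT6B and KRT39, given with FPKM or a test, were chosen after their values were seen), and per network role up to 3 called genes by size of change and the most abundant one that did not pass. Alternatives were pseudocounts, filters, scalings, eBayes settings, the replicate block, each library left out, voom on recovered reads and, added after seeing the data, principal transcript lengths (GENCODE release 29).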

Additional observations from a re-analysis of the deposited data

How the results depend on the processing

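Under all 18 alternatives 6 keratins were called lower, and 5 to 8 higher. The 11 called keratins other than KRT6A passed under each of the 18 alternatives in the same direction. Of 320 values of single keratins 301 kept direction and side of the threshold, 9 reversed and the call of KRT6A ended once. KRT14 passed under 3 alternatives, KRT3 under 4, KRT1 under 2 and KRT7 under 1. Rescaling to the same sum and rescaling without mitochondrially encoded genes gave identical values throughout. They are thus 1 check counted as separate alternatives in these counts, and the part of mitochondrially encoded genes was not tested. For KRT7 the change became 4.13e-04 in both, and 0.16 after quantile normalization. For KRT16 it became 0.024 in both rescalings, and ran from -0.16 to 0.089 with single libraries left out (0.089 and 0.035 without control replicate 1 or 2, 0.040 and 0.070 without IFN-beta replicate 1 or 3). The log2 difference of the wound class sum (0.21) became 0.26, and that of type II (-0.087) became -0.041, in both rescalings, and the simple sum (-0.034) turned to 0.012. With principal transcript lengths the basal sum moved from -0.33 to -0.21, the suprabasal sum from -0.53 to -0.40 and the type I sum from -0.23 to -0.16, because the lengths weight the genes differently. With single libraries left out, 5166 to 6162 genes, 5 to 7 higher keratins, 6 lower keratins and 13 to 15 network genes were called. Over the same omissions the sums ran from -0.39 to -0.30 (basal), -0.56 to -0.50 (suprabasal), 0.19 to 0.23 (wound), -1.70 to -1.44 (mucosal), -0.057 to -0.0056 (simple), -0.29 to -0.20 (type I), -0.11 to -0.058 (type II) and -0.19 to -0.12 (all). Pair ratios ran from -0.63 to -0.57 (KRT5/KRT14), 0.69 to 0.91 (KRT5/KRT15), 2.17 to 3.09 (KRT1/KRT10), 0.034 to 0.35 (KRT6A/KRT16), 0.50 to 0.75 (KRT4/KRT13), -0.13 to -0.065 (KRT8/KRT18) and 0.32 to 0.395 (KRT7/KRT19). No scaling moved the median of all genes (0.010) beyond 0.053 and -0.050. Same-numbered libraries did not deviate together from their group means (correlations of -0.052, -0.098 and -0.058), and no library correlated best with its own number. Values this near 0 show no pairing in the data but cannot tell whether same-numbered libraries were grown or prepared together. With the replicate number as a block 5817 genes, 6 higher and 6 lower keratins were called.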
